A study of Caenorhabditis elegans with 2 samples.

Results

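The 5 genes annotated for the histone variant H3.3 in Caenorhabditis elegans, his-72, his-71, his-69, his-70 and his-74, were followed through maps of HLH-1 binding in embryos. They are 5 of the 19973 protein-coding genes on the 6 nuclear chromosomes. For each gene the window ran from 5 kb upstream of the annotated start to 1 kb past the end. The family was chosen by the scores of the his-72 peaks in the pooled and IDR lists, so ranks, scores and counts of its peaks are a description and were not tested. The data come from chromatin immunoprecipitation with sequencing (ChIP-seq) of whole worms of strain OP64, of mixed embryonic stage and pooled sexes, with genotype unc-119(ed3) III; wgIs64. The strain carries an insertion that makes HLH-1 joined to eGFP; the labels name neither the promoter of the transgene nor any change to the worm's own hlh-1. There were 2 biological replicates in 1 group and no second condition, and the control library was not analysed here. Since whole embryos were used, binding in few cells and weak binding in many cells cannot be told apart.

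H3.3 is the replacement form of histone H3. The canonical H3 genes lie in clusters with the other core histones and are used during DNA replication, whereas H3.3 is deposited throughout the cell cycle, mainly at active genes and regulatory sites, by chaperones such as the HIRA complex and ATRX. In worms HIS-72 and HIS-71 are the H3.3 proteins best known from embryos and somatic tissues. HLH-1 is the worm relative of MyoD, a basic helix-loop-helix factor that drives body wall muscle fate and binds E-boxes (CANNTG). In mouse myoblasts, deposition of H3.3 with the help of HIRA is part of how MyoD target genes become active.

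Strong HLH-1 peaks in this family lay almost entirely at his-72. In the list of peaks past the reproducibility threshold (irreproducible discovery rate, IDR), his-72 had 4 summits, his-74 had 1 at the far end of its window, and his-71, his-69 and his-70 had none. Thus 2 of the 5 genes had an IDR summit in their window (40%). The share over all protein-coding genes under the same rule was 23.8% (95% Wilson interval 23.2 to 24.4, which covers counting of genes alone). No interval is given for the members, because the his-72 peaks were part of the choice of this family. The windows of his-69 and his-70 also overlap. The his-72 locus differed from the others in number as well, since 0.446% of protein-coding genes had at least 4 IDR summits in their window. At least 3 occurred at 1.35%, the share that applies without the weakest his-72 summit, which neither replicate held as a separate peak. In the relaxed lists, which also hold background, all 5 genes had a summit in the pooled list and in replicate 2, and 3 of the 5 had 1 in replicate 1, against 80.3%, 82.5% and 88.7% of protein-coding genes. The genes without any summit in replicate 1 were his-69 and his-70.

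The order of the 5 genes by their strongest pooled score was his-72 with 408.6, his-74 with 41.7, his-71 with 23.98, his-70 with 14.96 and his-69 with 10.4. Replicate 2 gave the same order, with 352.8, 41.8, 22.5, 16.4 and 10.1. The pooled list includes replicate 2, and below his-72 its strongest positions had a peak in replicate 2 alone. The shared order is therefore no independent check. In replicate 1 the order was his-72 with 84.1, his-74 with 5.97 and his-71 with 3.996. The his-74 value there came from another position, nearer to the start of the neighbouring gene ccch-3. These are the authors' scores, whose scale is not stated, so they are compared only within a list. Replicate 1 placed nothing at the strongest positions of his-74, his-71, his-70 and his-69. A window summit at least as strong as the best of his-74 occurred at 3693 protein-coding genes (18.5%) in the pooled list, as the best of his-71 at 30.6%, of his-70 at 47.4% and of his-69 at 66.7%. For his-72 that number was 5 genes, namely hlh-1, B0304.2 beside it, his-72, and its neighbours rpt-6 and Y75B8A.33, whose windows hold the same his-72 summit.

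**Figure D1:**
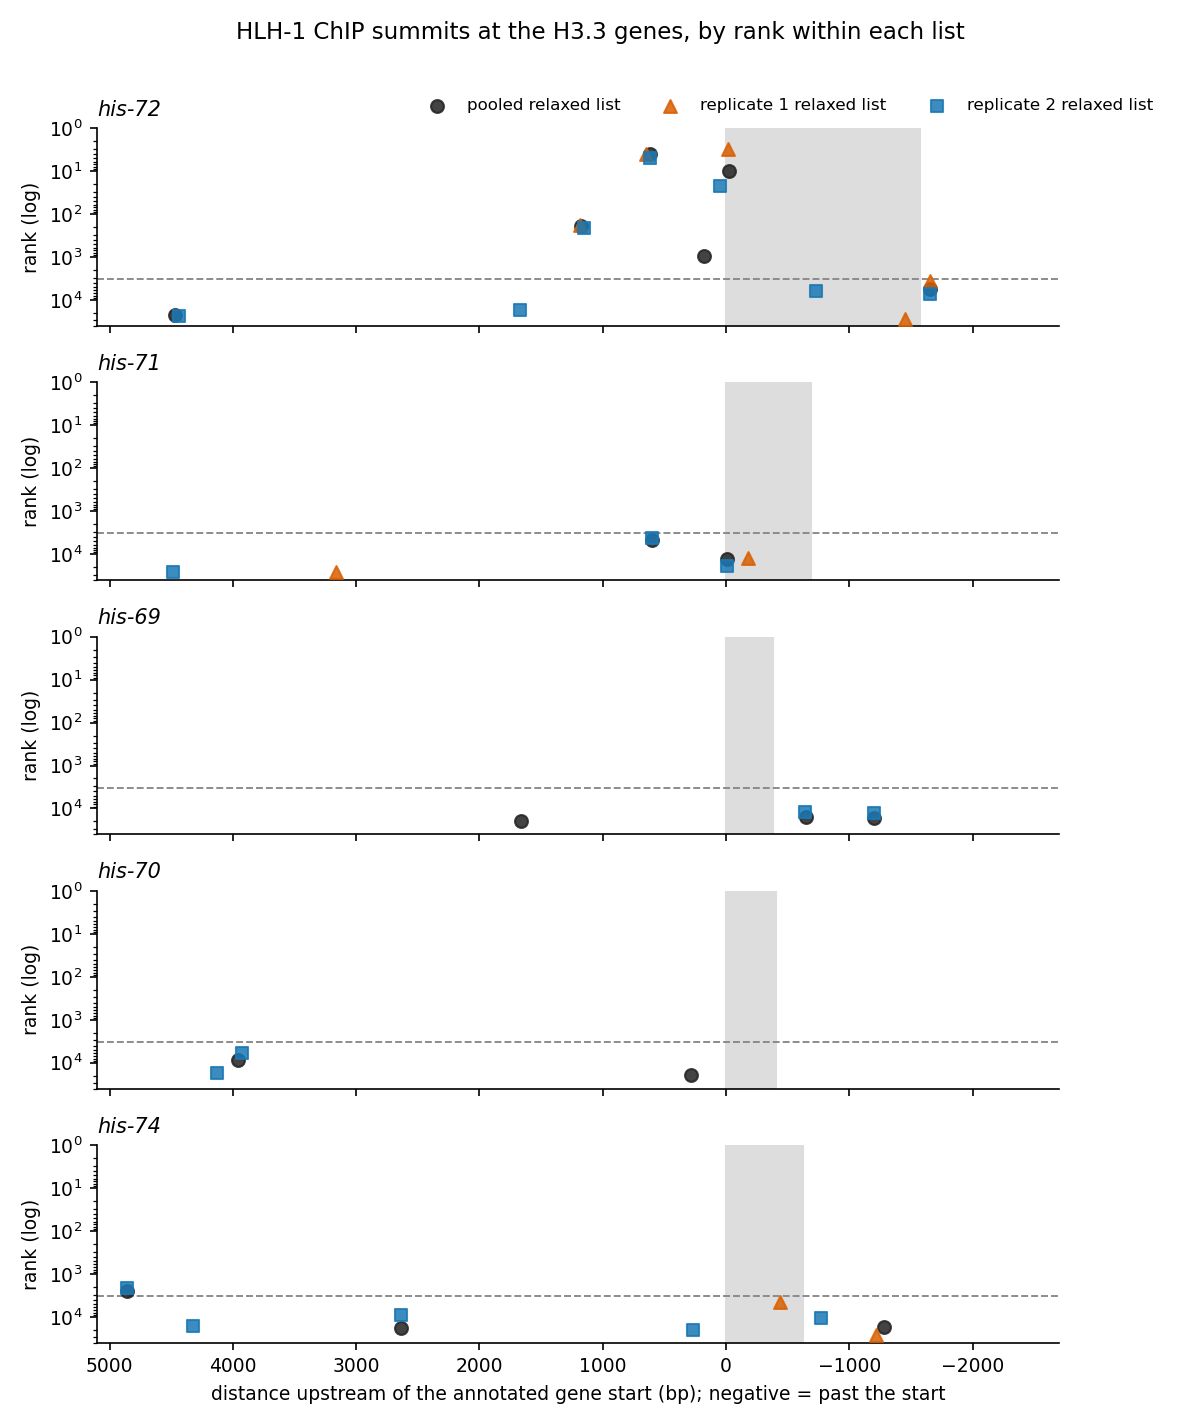
Rank by score (log axis, strongest at the top) of every summit in the window of each H3.3 gene, against its distance upstream of the annotated start in bp; circles are the pooled relaxed list, triangles replicate 1 and squares replicate 2, grey bands are gene bodies, and the dashed line is the length of the IDR list, 3254 peaks. The his-72 peaks at 620 bp upstream and at the start stand far above all others, with ranks from 3 to 22 in the 3 lists, and no peak of his-71, his-69 or his-70 rises above the line.

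The 4 IDR summits of his-72 (WBGene00001946, chromosome III, 12367475 to 12369050 on the minus strand, build ce11) formed a row across the sequence upstream of the gene. The strongest had its summit at 12369670, 620 bp upstream of the annotated start in intergenic sequence. Its score was 408.6 (rank 4 of 3254) in the IDR list, 58.2 (rank 4 of 28959) in replicate 1 and 352.8 (rank 5 of 30000) in replicate 2. The pooled and replicate 2 summits fell on the same base, and that of replicate 1 was 33 bp away.

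The second strongest had its summit at 12369028, 22 bp inside the annotated start, with a score of 339.1 (rank 10). Its score was 84.1 (rank 3) in replicate 1, with the summit 10 bp away, and 253.6 (rank 22) in replicate 2, with the summit 68 bp away. The order of these 2 peaks therefore differed between the replicates: the peak at the start came before the upstream peak in replicate 1 and after it in replicate 2. Both were among the 22 highest-scoring peaks of every list.

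A peak at 12370226, 1176 bp upstream, had a score of 151.7 (rank 192) in the IDR list, 21.7 (rank 184) in replicate 1 and 129.9 (rank 216) in replicate 2. Its nearest start is not that of his-72 but that of rpt-6, a gene for an ATPase of the proteasome that is read in the other direction, 230 bp from the summit. The remaining summit, at 12369230 and 180 bp upstream, had a score of 76.5 (rank 937). Its peak overlaps that at the start, and neither replicate had a summit of its own there: the nearest were 192 bp away in replicate 1 and 134 bp away in replicate 2, both belonging to the peak at the start. The 3 stronger peaks of his-72 were thus seen as separate peaks in both replicates, and the weakest was not.

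The annotation gives his-72 2 transcripts, and they place these peaks differently. Isoform a encodes the histone of 136 residues and starts at 12368164. Isoform b starts at 12369050 with an exon of 7 bp and reads the shared exon in another frame; its translation of 151 residues shares 22 aligned residues with HIS-72. Measured from the start of isoform a, the IDR summits lay 864, 1066, 1506 and 2062 bp upstream. The peak that falls in an intron by the gene model is therefore upstream of the whole histone-coding transcript, and all 4 summits lie in the 2291 bp between the starts of isoform a and rpt-6. From the rpt-6 start the same summits, in the same order, lay 1428, 1226, 786 and 230 bp away. The strongest, at 12369670, and that at 12370226 were thus nearer to the rpt-6 start than to that of isoform a. A small nucleolar RNA gene, Y49E10.36, also lies inside the long intron of isoform b, and replicate 2 alone had a weak summit beside it at 12368318 (score 15.995, rank 6229).

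**Figure D2:**
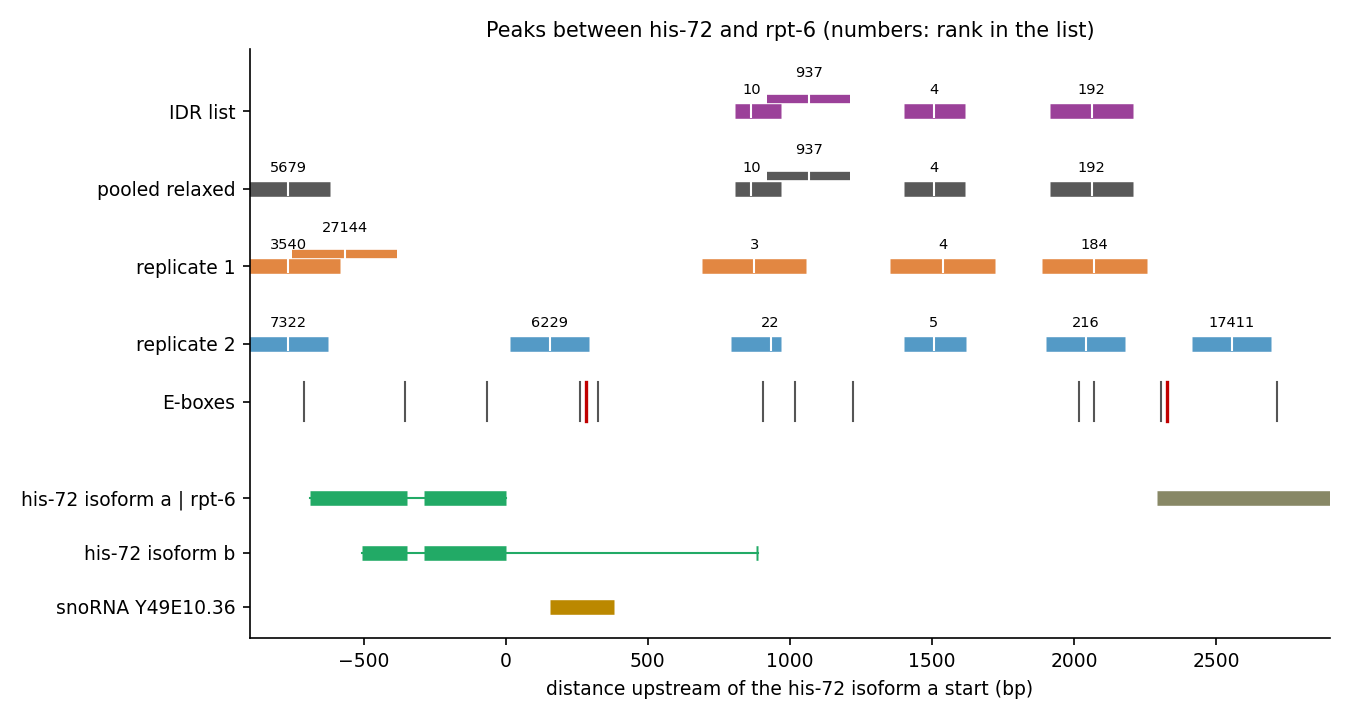
Peaks, summits (white ticks) and ranks in the 4 lists between his-72 and rpt-6, by distance upstream of the start of his-72 isoform a in bp, with every CANNTG site (grey, CAGCTG in red) and the exons of both his-72 isoforms, the rpt-6 gene body and the snoRNA gene; a thinner bar is a peak that overlaps a stronger one of its list. The 4 IDR summits lie from 864 to 2062 bp upstream of the isoform a start, the last of them 230 bp from the start of rpt-6.

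The sequences at these summits are shown because that of the strongest peak carries no E-box. Each is the summit base with 50 bp on either side, on the plus strand of ce11 (RefSeq sequence of assembly WBcel235), with every CANNTG in capitals.
his-72, 22 bp inside the start, chrIII:12368978-12369078: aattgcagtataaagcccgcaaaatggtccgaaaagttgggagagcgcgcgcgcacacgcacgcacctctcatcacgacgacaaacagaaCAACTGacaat
his-72, 180 bp upstream, chrIII:12369180-12369280: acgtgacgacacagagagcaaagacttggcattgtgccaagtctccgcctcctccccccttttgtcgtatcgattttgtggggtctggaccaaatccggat
his-72, 620 bp upstream, chrIII:12369620-12369720: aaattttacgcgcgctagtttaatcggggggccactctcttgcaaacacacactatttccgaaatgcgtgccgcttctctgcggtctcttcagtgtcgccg
his-72, 1176 bp upstream, chrIII:12370176-12370276: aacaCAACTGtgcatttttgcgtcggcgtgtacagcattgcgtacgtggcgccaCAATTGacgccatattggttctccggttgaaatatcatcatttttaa

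The window of the strongest peak held no CANNTG at all. Its nearest such site was a CACGTG 282.5 bp from the summit. Over all IDR summits, 63.4% of windows held at least 1 CANNTG, and the median was 1 site per window. The window at the start held CAACTG, 42.5 bp from the summit, and the window near rpt-6 held CAACTG at 43.5 bp and CAATTG at 6.5 bp. The window 180 bp upstream held none, although a CACGTG begins 1 base outside it. None of the 4 windows held CAGCTG, which was present in 15.2% of IDR windows. A CAACTG occurred in 2 of the 4 windows, against 18.0% of all IDR windows, and CACCTG in none. Either of these or CAGCTG occurred in 38.8% of all IDR windows.

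Across the whole his-72 window of 7576 bp there were 28 CANNTG sites, or 3.70 per kb, beside 4.13 per kb in the nuclear genome. Of these sites 4 had their centre within 50 bp of an IDR summit, and neither of the 2 CAGCTG sites did. Over the nuclear genome 0.753% of CANNTG sites and 2.6% of CAGCTG sites lay that close to one. The window was chosen for its peaks, so these counts were not tested. Between the starts of isoform a and rpt-6 the density was 3.49 per kb (8 sites). With all CANNTG counted together, the his-72 upstream sequence was thus not richer in E-boxes than the genome as a whole. By hexamer, the whole window held 5 CAACTG (0.660 per kb, genome 0.577), 2 CAGCTG (0.264, genome 0.204) and 2 CACCTG (0.264, genome 0.260). These differences rest on few sites and were not tested.

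Other hexamers were searched on both strands. GCGCGC occurred 3 times in overlapping positions at the peak by the start, the nearest 0.5 bp from the summit, and at the strongest peak 38.5 bp from the summit. It was present in 5.75% of IDR windows and in 0.707% of the windows centred 500 bp to their right. GACGCA occurred in the window near rpt-6 (14.7% of IDR windows). ACGCAG (15.5% of IDR windows) occurred in none of the 4, nor did CGTCTC (17.6%) or GAGAGA (29.7%). In the windows 500 bp to the right GACGCA was present in 2.06%, ACGCAG in 2.27%, CGTCTC in 2.67% and GAGAGA in 5.16%. Each of these was thus rarer there too, as GCGCGC was. These hexamers were taken from an earlier ranking of the same summits, so that difference is no independent result. The window 180 bp upstream held an inverted repeat, TTGGCATTGTGCCAA (chromosome III, 12369205 to 12369219), 18 bp from the summit. Its arms resemble the site that nuclear factor I proteins bind in vertebrates. It was noticed by reading the window; with any 3 bases between the arms it occurs in 14 of the 3254 IDR windows (0.430%) and at 586 places in the genome. The GC content of the windows was 51.5%, 53.5%, 52.5% and 44.6% in the order printed, beside a median of 47.5% over IDR windows.

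The his-72 peaks were packed more tightly than any other 4 in the IDR list. Neighbouring summits were 202, 440 and 556 bp apart, against a median of 15765 bp between neighbouring IDR summits, and 1.57% of neighbours were at most 556 bp apart. From the first to the last the distance was 1198 bp. Of 3236 runs of 4 summits on the same chromosome no other was as short; the next lay at hmg-1.1 (1959 bp), din-1 (2284 bp) and sup-26 (2456 bp), and at hlh-1 itself the tightest took 2601 bp. When the summit with none of its own in either replicate was left out, 3 summits remained in 1198 bp, and 5 of 3241 runs of 3 were as short or shorter, that of his-72 included. The hlh-1 locus, which holds the strongest peaks of the series, had 6 IDR summits in its window, 2 more than his-72. The strain's insertion also encodes HLH-1, and the control library was not analysed. Whether reads from the insertion add to the peaks at hlh-1 was not tested.

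**Figure D3:**
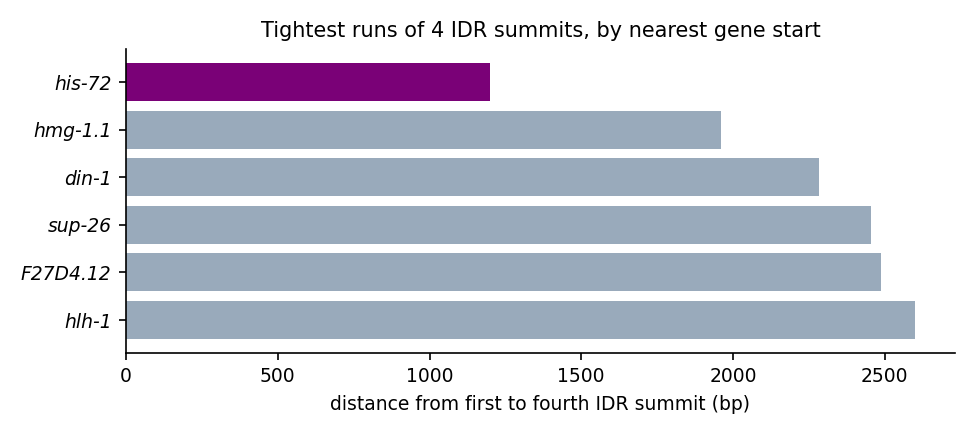
Distance in bp from the first to the fourth summit of the tightest runs of 4 IDR summits, 1 bar per nearest gene. The run at his-72 takes 1198 bp, that at hmg-1.1 1959 bp and that at hlh-1 2601 bp.

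Downstream of his-72 a weak peak was found in all 3 relaxed lists. Its pooled summit at 12367399 had a score of 20.0 (rank 5679), with summits at most 1 bp away in replicate 1 (score 6.57, rank 3540) and replicate 2 (score 14.1, rank 7322). It lies 26 bp upstream of the start of Y75B8A.33, the next gene, and did not pass the IDR threshold.

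The other somatic H3.3 gene, his-71 (WBGene00001945, chromosome X, 7981382 to 7982070, minus strand), had no IDR peak in its window. Its best summit, at 7982672 and 602 bp upstream, had a pooled score of 23.98 (rank 4540 of 25321). The lowest score in the IDR list was 32.492, and the highest pooled score outside it was 32.490. Replicate 2 had the same summit base with a score of 22.5 (rank 4252), and replicate 1 had no peak there. A second, weaker pooled summit lay in the 5′ UTR, 11 bp past the start (score 11.7, rank 13189). There replicate 2 had a score of 7.39 (rank 18348) and replicate 1 a score of 3.996 (rank 12431) with a summit 164 bp away. The nearest IDR summits were 15176 bp upstream and 27566 bp downstream of the start. The spacing of the best his-71 peak from its start, 602 bp, was close to the 620 bp of the strongest his-72 peak, but measured from the histone-coding isoform of his-72 the distance was 1506 bp.

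The his-71 summit with 50 bp on either side is shown for comparison with his-72, also on the plus strand.
his-71, 602 bp upstream, chrX:7982622-7982722: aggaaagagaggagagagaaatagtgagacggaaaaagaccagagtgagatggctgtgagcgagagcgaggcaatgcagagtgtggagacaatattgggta

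This window held no CANNTG, the nearest being a CAAGTG 153.5 bp from the summit. It held 2 overlapping GAGAGA sites, 34.5 bp or more from the summit, and a CGTCTC 22.5 bp from it; each hexamer was present in a larger share of IDR windows than GCGCGC. In the whole his-71 window there were 29 CANNTG sites, of which 2 were CAGCTG and neither lay within 50 bp of a pooled summit. The weaker pooled summit in the 5′ UTR did have E-boxes, a CACCTG 11.5 bp and a CAACTG 38.5 bp away.

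The neighbouring genes his-69 (WBGene00001943, chromosome III, 4058360 to 4058743) and his-70 (WBGene00001944, 4059715 to 4060119), both without introns, had the weakest signal of the family. Their windows overlap and share a pooled summit at 4060407, 288 bp upstream of his-70, with a score of 9.21 (rank 19463) and no overlapping peak in either replicate. The other 2 pooled summits of his-69 lay past its end, at 4058095 (score 10.4, rank 16060) and 4057547 (score 10.3, rank 16294), nearest to the start of the DNA helicase gene rcq-5. Replicate 2 had them with scores of 10.1 and 9.71, and replicate 1 had neither. The best summit of his-70 lay 3960 bp upstream at 4064079 (score 14.96, rank 8643), with a replicate 2 score of 16.4 (rank 6047). The start of another gene, unc-79, was nearer to it. The nearest IDR summit, at 4049334, was 9409 bp downstream of the his-69 start and 10785 bp downstream of the his-70 start.

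At his-74 (WBGene00012276, chromosome V, 12659704 to 12660330, minus strand) the 1 IDR summit lay at 12665186, 4856 bp upstream of the start and so just inside the window. Its score was 41.7 (rank 2450 of 3254), with a score of 41.8 (rank 2097) in replicate 2 and no overlapping peak in replicate 1. The nearest protein-coding starts were those of W05B10.4 (3040 bp) and W05B10.3 (3467 bp). Its summit window, the last of the IDR windows in this family, is shown for its E-box.
his-74, 4856 bp upstream, chrV:12665136-12665236: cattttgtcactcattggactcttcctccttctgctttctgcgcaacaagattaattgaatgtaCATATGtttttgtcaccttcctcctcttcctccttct

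The site is a CATATG, 16.5 bp from the summit. In and beside the his-74 gene the lists differed. Replicate 1 had a summit in a coding exon, 441 bp past the start (score 5.97, rank 4580). Replicate 2 had weak summits 265 bp upstream of the start (score 6.996, rank 19658) and 771 bp past it, beyond the gene's end (score 10.7, rank 10704). The summits 441 and 771 bp past the start were nearer to the start of the next gene, ccch-3 (202 and 128 bp). The latter lay in the 5′ UTR of ccch-3. The pooled list had none within 1 kb of the his-74 start. The next IDR summits outside the window lay 68129 bp upstream and 10497 bp downstream of the start.

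The proteins of the 5 genes were compared by translating their coding sequences. HIS-71 matched HIS-72 at 135 of 136 aligned residues and HIS-74 at 128, while HIS-69, with 127 residues, matched at 111 and HIS-70, with 134, at 108. The canonical H3 encoded by his-2 matched HIS-72 at 127 residues, HIS-71 at 128 and HIS-74 at 120. HIS-72 and HIS-71 thus had nearly the same protein, with 4 IDR summits at his-72 and none at his-71. Their coding sequences matched at 355 of 408 bases. None of the 30-base words inside the 4 his-72 peaks occurred elsewhere in the nuclear genome, whereas 7.22% of those in the his-72 coding exons did and 11.4% in those of his-69. All IDR peaks of the family lay outside the coding exons that the genes share.

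Genes that handle or resemble H3 were described with the same window. Of 9 genes for H3 chaperones 6 had an IDR summit (66.7%), against 23.8% of protein-coding genes. These 6 are not separate observations, since lin-53 and rba-1 were counted for the same summit. The strongest were xnp-1, the worm ATRX (score 112.2, rank 421, 609 bp upstream), lin-53 and rba-1, neighbouring genes for RbAp48-like proteins that share 1 summit (score 74.6, rank 972), and chaf-1, for a subunit of chromatin assembly factor 1 (score 58.6, rank 1513, 2545 bp past the start). The summits of lin-53, rba-1 and chaf-1 were nearer to starts of other genes, nra-2 and rsbp-1. The strongest summit of unc-85 (score 51.3, rank 1873, 3616 bp upstream) was nearer to rpn-5. Among the chaperone genes with an IDR summit, only xnp-1 and chaf-2 had their own start nearest to the strongest one. No IDR summit fell in the windows of hira-1, the HIRA gene, pqn-80 or asfl-1, which were named after their values were seen. Their strongest pooled scores were 21.9, 27.0 and 11.8. These lists were chosen with earlier results of these data known, and the counts were not tested.

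Of 9 genes for linker histones and the H2A variant H2A.Z, 5 had an IDR summit (55.6%). The strongest were hil-7 (score 123.4, rank 330, 180 bp upstream), the linker histone gene his-24 (97.9, rank 576, 3461 bp upstream), hil-5 (82.1, rank 820, 1409 bp past the start) and htz-1, for H2A.Z (71.5, rank 1062, 305 bp upstream). Of these summits only that of hil-7 had its own gene's start as the nearest. The others were nearer to M163.8 (his-24), rnt-1 (hil-5) and wapl-1 (htz-1). The remaining gene with an IDR summit, hil-3, also had its own start nearest to its strongest one (33.6, rank 3139, 1105 bp past the start). Of the genes for the centromeric variant CENP-A, hcp-3 had a summit (score 41.6, rank 2458, 2946 bp upstream, nearer to hlh-11) and cpar-1 had none.

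The other H3 genes were taken as the 15 further his genes whose proteins are at least 90% identical to HIS-72. Of these 4 had an IDR summit (26.7%), near the share of all protein-coding genes. They were his-32 (score 67.7, rank 1173, 137 bp upstream), his-40 (53.0, rank 1784, 4065 bp upstream), his-59 (37.1, rank 2804, 1880 bp upstream) and his-13 (33.7, rank 3127, 3077 bp upstream). The his-32 summit was nearest to its own gene, and the other summits were nearer to sur-5 (his-40), his-61 (his-59) and his-16 (his-13). The highest of these scores was below that of the third his-72 peak, 151.7. The median of the strongest pooled scores, over genes with a pooled summit, was 23.98 for the H3.3 genes, 51.3 for the chaperones, 52.5 for linker histones and H2A.Z, 24.8 for the CENP-A genes and 15.4 for the other H3 genes, beside 17.7 over all protein-coding genes.

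**Figure D4:**
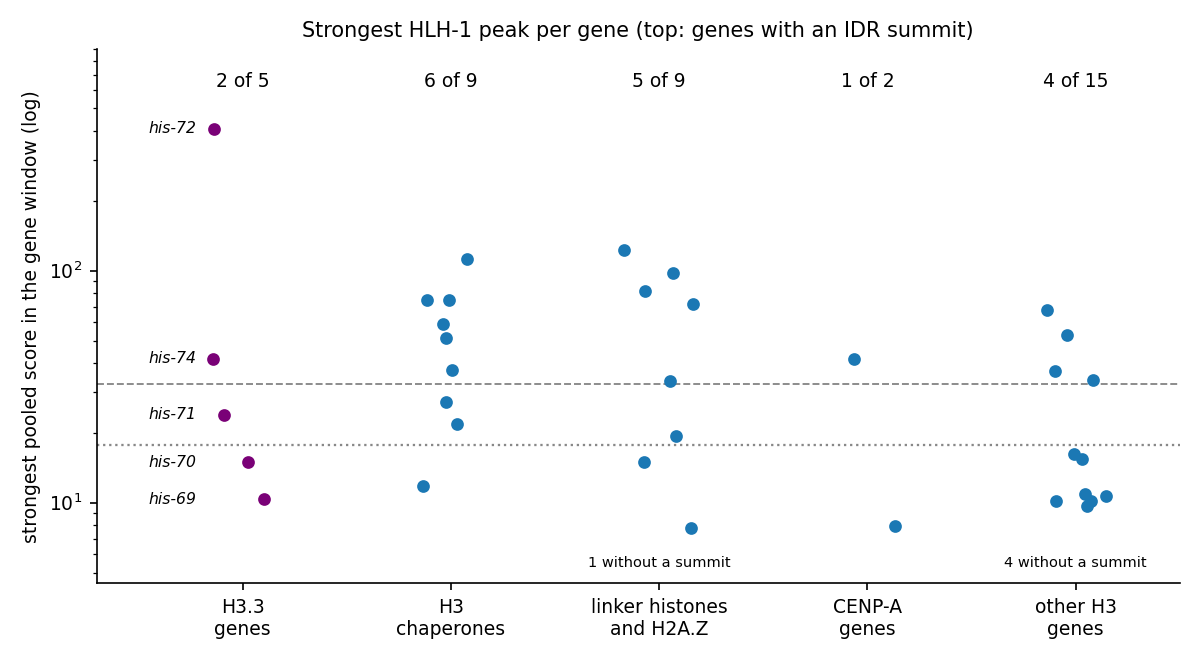
Strongest pooled score in the window of each gene (log axis, authors' score), 1 point per gene, for the H3.3 genes and 4 lists of related genes; the dashed line is the lowest score in the IDR list, 32.5, the dotted line the median over all protein-coding genes with a pooled summit, 17.7, and the numbers above count genes with an IDR summit. Among the genes shown his-72, at 408.6, lies above the next highest, hil-7 at 123.4, and 3 of the 5 H3.3 genes lie below the dashed line.

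The genes outside the family whose strongest window summit was most like that of his-72 were sought by the distance between log10 scores in the pooled list and both replicates, 3 lists from 2 samples, leaving out genes that share a his-72 summit. They were sup-12, for a muscle splicing regulator (distance 0.261; scores 353.6, 47.8 and 306.1 in the pooled, replicate 1 and replicate 2 lists), ppfr-1 (0.325), hip-1 and T12D8.9, which share their summit (0.352), and R05D7.1 (0.366). The strongest summit lay 3670 bp upstream of sup-12 and 15215 bp past the start of ppfr-1. That of hip-1 and T12D8.9 lay 133 bp upstream of T12D8.9 and 5521 bp past the hip-1 start. That of R05D7.1 lay 1070 bp upstream and was nearer to R05D7.2. Their windows held 3, 3, 1, 1 and 1 IDR summits, against 4 for his-72. These counts were not scaled to window length, and ppfr-1 is a much longer gene (9364099 to 9389982).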

How the data were processed

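HLH-1 binding was profiled by ChIP-seq in 2 biological replicates of whole embryos, which form 1 group; fragments measured 150 to 350 bp per the labels. Per the deposited manifests, the authors made a relaxed list of peaks and background for each replicate and for the pooled alignments, and derived the IDR list from these 3. The deposited score of each peak (column 7) has no stated scale, and the deposited summit offset was added to the peak start. No source used here names the aligner, peak caller, IDR threshold or read depth. The interval for the share of all protein-coding genes covers counting alone. The lists on ce11 held 3254 (IDR), 25321 (pooled), 28959 and 30000 (replicates 1 and 2) peaks, and the IDR list was the 3254 top pooled peaks. Lists on ce10 were not used, and no peak passed the end of a WBcel235 chromosome.

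Genes came from Ensembl release 115 and coordinates are 1-based; genes that share a name there took the RefSeq symbol at the same position. Proteins were translated from the first isoform by name and aligned with Biopython 1.88. Repeats were sought as exact words of 30 bases on both strands. A replicate peak counted as a counterpart at an overlap of 1 bp. Members and gene lists were chosen with earlier results of these data known. The genes named are the members, their neighbours, up to 4 with the strongest summits per list, the 5 most like his-72 and hlh-1. Genes outside this rule (hira-1, pqn-80, asfl-1, unc-85, chaf-2, hil-3, cpar-1, hmg-1.1, din-1, sup-26, unc-79 and others given as nearest to a summit) were named after their values were seen. As the members were chosen from these values, no test was made. Alternatives were other windows, lists, overlaps and motif widths.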

Additional observations from a re-analysis of the deposited data

How the results depend on the processing

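Of 75 alternative values, 48 stayed within 1.5 times the main value (for the share of all protein-coding genes, within its interval) and 27 did not. The 48 include values that were 0 and stayed 0, for summits of his-71, his-69 and his-70 and for windows with CAGCTG. Narrower windows or a part of the IDR list could not have raised these, so the tally is no measure of robustness for them. From 2 kb upstream to 500 bp past the start, 1 H3.3 gene had a summit, his-74 had 0, and the share of all protein-coding genes was 12.8%. In gene bodies alone the family had 1 gene and 1 summit, his-72 had 1, his-74 had 0, and the share was 4.20%. From 10 kb upstream the share was 32.8%. In the highest-scoring part of the IDR list (50%) 1 gene had a summit, his-74 had 0, and the share was 12.7%. In the pooled relaxed list 5 genes had 15 summits, with 2 at his-71, 3 at his-69, 2 at his-70 and 3 at his-74, and the share was 80.3%. With the top 3254 peaks of either replicate alone, 1 to 2 genes had a summit, with 3 to 4 summits in all, 0 to 1 at his-74, and 1 to 2 summit windows held CAACTG or another of the 3 E-boxes searched; the lower values are those of replicate 1. Windows of 51 bp left 0 such windows. A peak in both replicates was found for 4 of the 5 IDR summits. The number was 3 with summits at most 100 bp apart, and 2 when each peak had to cover at least 50% of the other. The IDR list was derived from the replicate lists, so these numbers are no independent check. The cause of these changes was not tested, beyond the number of bases or peaks each setting admits. Runs as short as that of his-72 numbered 1 among runs of 4. They numbered 5 among runs of 3 without its summit that has none in either replicate within 100 bp, and also 5 without all 3 such IDR summits, both chosen after seeing the data. The best his-72 rank was 3 to 5. No paired analysis was possible because the samples form 1 group. Read depth, not given in the sources used here, limits what the weak peaks can show.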
